A study of Mus musculus with 46 samples.

Results

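Fatty acid uptake and beta-oxidation was examined with 32 genes listed by symbol for their known role, from the transporters at the cell surface to the last step of the mitochondrial cycle and the genes that set the choice of fuel. The list was made with earlier results of these data known, so its comparisons with all genes are descriptions, not tests. All 32 were found in both tables, as 32 of 17514 genes in gastrocnemius and 32 of 16987 genes in spinalis. They were grouped by role into uptake and activation, the carnitine shuttle, the beta-oxidation cycle, unsaturated acids, the electron transfer flavoprotein, and fuel choice and overflow.

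Muscle fibres take up fatty acids through carriers such as *Cd36*, bind them to *Fabp3* in the cytosol and activate them to acyl-CoA. The carnitine shuttle moves the acyl groups into mitochondria, where repeated rounds of dehydrogenation, hydration, dehydrogenation and thiolysis shorten the chain.

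The series sequenced muscle RNA of WT and *Actn3* KO mice of strain C57BL6 (C57BL/6J in the paper's methods) in 2 experiments, with 46 samples described and 45 analysed here. In the experiment on orchidectomy (ORX), male mice had ORX or sham surgery at 8 to 10 weeks of age and their gastrocnemius was taken 12 weeks later. In the experiment on dihydrotestosterone (DHT), female mice received an implant with 10 mg of DHT or an empty implant at 4 to 5 weeks of age and their spinalis was taken 6 weeks later. There were 6 sham and 6 ORX libraries of WT, 6 sham and 5 ORX libraries of KO, 5 empty and 6 DHT libraries of WT, and 5 empty and 6 DHT libraries of KO. Sex, muscle, age and length of treatment all differ between the experiments, so their tables were fitted separately. Libraries are named by group and number, where the numbers of the DHT experiment only give the order of the columns.

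Total counts per library, in units of 1e6 counts, were 43.4 to 50.3 (median 47.1) in WT sham, 39.9 to 55.4 (median 45.6) in WT ORX, 29.5 to 37.5 (median 34.3) in KO sham and 26.7 to 48.5 (median 41.6) in KO ORX. They were 37.3 to 51.2 (median 47.0) in WT empty, 34.8 to 53.9 (median 52.0) in WT DHT, 42.5 to 47.8 (median 44.1) in KO empty and 34.9 to 51.7 (median 44.2) in KO DHT. Every KO sham library was smaller than every WT sham library. The 32 genes took a median of 0.476% of the counts in WT sham, 0.399% in WT ORX, 0.543% in KO sham and 0.419% in KO ORX. In the DHT experiment the medians were 0.410% in WT empty, 0.435% in WT DHT, 0.449% in KO empty and 0.535% in KO DHT. Mitochondrially encoded genes took medians of 14.5%, 12.1%, 15.1% and 13.1%, and of 6.07%, 9.36%, 9.69% and 10.6%, in the same order.

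The labels were checked with *Actn3*, the gene removed in the KO mice. Its counts lay between 271459 and 344665 in WT sham, 334134 and 522718 in WT ORX, 1301 and 1653 in KO sham and 1051 and 2702 in KO ORX. They lay between 357573 and 518011 in WT empty, 222975 and 393368 in WT DHT, 2643 and 3913 in KO empty and 2133 and 3407 in KO DHT, so each library fits its genotype label. The log2 fold change of *Actn3* in KO against WT was −7.18 ± 0.12 (adjusted p = 2.68e-25) with sham surgery and −7.12 ± 0.12 (adjusted p = 8.45e-23) with the empty implant. The 5 myofibre markers *Ckm*, *Acta1*, *Ttn*, *Mb* and *Des* were all in both tables, with median summed levels of 124257 CPM in WT sham and 182473 CPM in WT empty.

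Levels are given in CPM, the counts of a gene per 1e6 counts of its library after TMM scaling. Fold changes are log2 values with their standard error, and p-values of edgeR's quasi-likelihood test were adjusted over the whole table by the Benjamini-Hochberg method. These p-values measure the spread between mice, since each library is 1 mouse. Genes are called at 0.01 or less for effects of treatment or genotype and at 0.05 or less for interactions. In bulk RNA, a lower level from fewer cells of a type and a lower level per cell cannot be told apart.

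Levels between genes were compared per kilobase of the principal transcript (mean ± SD). In WT sham (n = 6) the highest was *Acadm* at 175 ± 19.1 CPM per kilobase, followed by *Cd36* at 151 ± 14.7 and *Fabp3* at 131 ± 20.5. The lowest in WT sham were *Cpt1b* at 1.27 ± 0.142 and *Slc27a4* at 1.93 ± 0.193 CPM per kilobase. In WT empty (n = 5) the highest were *Acadm* at 116 ± 12.7 and *Pdk4* at 111 ± 33.2, and *Cpt1b* was again lowest at 0.943 ± 0.247. The count of *Cpt1b* is uncertain, because 81.4% of its exon bases in GENCODE M21 are shared on the same strand with the readthrough gene *Gm44502*, and reads that match both genes can be left uncounted.

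The question of the ORX experiment was whether the 32 genes changed when androgens were removed, and it was asked in each genotype by comparing ORX with sham libraries. In WT, 9 of 32 genes were called lower, where 3.41% of all genes were called lower and 2.04% higher. EdgeR called 0 of the 32 higher in WT, as did DESeq2 and limma-voom. An unadjusted p under 0.05 was found for 21 of the 32, all lower, and for 3907 of all 17514 genes. The median log2 fold change of the 32 was −0.25, against 0.013 for all genes, and 30 of 32 were negative. Of these, *Slc27a1* and *Acot13* turned positive with library-size scaling, *Slc27a1* also with upper-quartile scaling and with limma-voom. The WT count was 5 with library-size scaling, which ended the calls of *Cd36*, *Crat*, *Acadm* and *Acaa2*, and 4 without WT sham 1, WT sham 2 or WT ORX 6. Upper-quartile scaling ended those of *Cd36*, *Crat* and *Acaa2*, and *Cd36* also lost its call with a minimum of 10 counts and with only the groups compared. The higher share of all called genes was 37.5% with TMM and 54.4% with library-size scaling.

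In KO, 16 of 32 genes were called lower with ORX, where 3.58% of all genes were called lower and 1.99% higher. EdgeR, DESeq2 and limma-voom again called 0 of the 32 higher. At an unadjusted p under 0.05 were 26 of the 32, all lower, and 4288 of all 17514 genes. The median log2 fold change was −0.32, against 0.014 for all genes, and 31 of 32 were negative, of which *Echs1* turned positive with library-size scaling. Library-size scaling shifted the median of all genes by 0.106 in KO and brought the count to 7, without *Cpt2*, *Crat*, *Acadl*, *Acadvl*, *Acads*, *Hadha*, *Hadh*, *Acaa2* and *Acat1*. With only the groups compared, *Cpt2* and *Hadha* lost their calls. Library-size scaling moved the higher share of all called genes from 35.7% to 78.6%. WT and KO mice share no libraries in these comparisons, and 8 genes were called lower in both, 88.9% of the WT calls and 50% of the KO calls. Over all genes, 333 were called lower in both, 55.8% and 53.1%. The 8 were *Acsl1*, *Crat*, *Acadm*, *Acadl*, *Acadvl*, *Hadh*, *Acaa2* and *Etfdh*.

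Uptake and activation was represented by 6 genes. The group's median log2 fold change was −0.29 in WT and −0.29 in KO. *Cd36* encodes a fatty acid translocase of the cell surface. *Cd36* in WT lay between 428 and 582 CPM (median 516) in sham and between 351 and 488 (median 402) in ORX. KO libraries held *Cd36* between 476 and 614 CPM (median 554) in the sham and at 418, 431, 468, 472 and 512 in the ORX group. *Cd36* fell with ORX in WT (−0.31 ± 0.077, adjusted p = 0.00996), did not pass in KO (−0.25 ± 0.081, adjusted p = 0.0461), and the interaction had an adjusted p of 0.917. For *Cd36*, sham and ORX libraries overlapped in each genotype. *Lpl* encodes the lipase that frees fatty acids from circulating triglyceride. *Lpl* was between 279 and 393 CPM (median 357) in WT sham, between 221 and 312 (median 287) in WT ORX, between 306 and 449.6 (median 395) in KO sham and at 279.8, 308, 311, 312 and 366 in KO ORX. *Lpl* passed in neither WT (−0.28 ± 0.097, adjusted p = 0.0636) nor KO (−0.32 ± 0.10, adjusted p = 0.0412), and the ranges overlapped in both. *Cd36* lost its call in WT without KO sham 2, 3 or 6, KO ORX 1, 2, 4 or 5, WT sham 1, 2, 3, 4 or 6 or WT ORX 1, 4, 5 or 6 (16 of 23 fits, adjusted p up to 0.0333).

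*Fabp3* encodes the fatty acid binding protein of heart and muscle cytosol. In WT, *Fabp3* was between 83.6 and 131 CPM (median 106) in sham and between 52.0 and 102 (median 77.9) in ORX libraries. *Fabp3* in KO lay between 96.5 and 150.3 CPM (median 129.6) in sham and at 59.5, 65.6, 69.0, 75.6 and 108 in ORX. *Fabp3* fell with ORX in KO (−0.74 ± 0.16, adjusted p = 0.00268), did not pass in WT (−0.46 ± 0.15, adjusted p = 0.0459), and the interaction had an adjusted p of 0.716. The ranges of *Fabp3* overlapped in both genotypes. Counts of *Fabp3* are uncertain, since the processed pseudogene *Fabp3-ps1* is in the table with a median of 4127 counts and 19.6% of the exon bases of *Fabp3* overlap genes of the opposite strand. *Acsl1* encodes the main acyl-CoA synthetase that activates long-chain acids in muscle. *Acsl1* in WT lay between 278 and 394 CPM (median 314) in sham and between 209 and 246 (median 226) in ORX. KO libraries held *Acsl1* between 327 and 424 CPM (median 359.9) in the sham and at 225, 232, 232, 232 and 277 in the ORX group. *Acsl1* fell with ORX in WT (−0.50 ± 0.074, adjusted p = 3.23e-05) and in KO (−0.61 ± 0.079, adjusted p = 6.47e-06). For *Acsl1*, both genotypes had every ORX library below every sham library. *Slc27a1* and *Slc27a4*, which encode fatty acid transport proteins, passed in neither genotype. *Fabp3* lost its call in KO without KO ORX 4 or 5 (2 of 23 fits, adjusted p up to 0.0127).

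The carnitine shuttle was represented by 5 genes. Their median log2 fold change was −0.20 in WT and −0.32 in KO. *Cpt1b* encodes the muscle form of the outer membrane carnitine palmitoyltransferase. *Cpt1b* was between 3.06 and 4.22 CPM (median 3.76) in WT sham, between 2.42 and 3.16 (median 2.86) in WT ORX, between 2.90 and 4.47 (median 4.00) in KO sham and at 2.47, 2.69, 2.94, 3.20 and 3.81 in KO ORX. Neither WT (−0.40 ± 0.12, adjusted p = 0.0400) nor KO (−0.32 ± 0.13, adjusted p = 0.127) passed for *Cpt1b*, and the ranges overlapped in both. *Cpt1a* encodes the liver form of the same enzyme. *Cpt1a* was between 13.7 and 17.7 CPM (median 14.6) in WT sham, between 10.6 and 19.4 (median 14.6) in WT ORX, between 13.6 and 22.2 (median 17.4) in KO sham and at 13.6, 14.6, 14.7, 16.5 and 22.0 in KO ORX. *Cpt1a* passed in neither WT (−0.052 ± 0.14, adjusted p = 0.880) nor KO (−0.13 ± 0.15, adjusted p = 0.634), and the ranges overlapped in both. *Cpt2* encodes the inner membrane enzyme that returns acyl groups to coenzyme A. *Cpt2* in WT lay between 30.0 and 43.8 CPM (median 37.8) in sham and between 31.2 and 37.1 (median 32.6) in ORX. KO libraries held *Cpt2* between 42.0 and 50.1 CPM (median 45.9) in the sham and at 33.4, 34.3, 34.4, 35.1 and 44.7 in the ORX group. *Cpt2* fell with ORX in KO (−0.34 ± 0.082, adjusted p = 0.00701), did not pass in WT (−0.18 ± 0.078, adjusted p = 0.156), and the interaction had an adjusted p of 0.690. For *Cpt2*, sham and ORX libraries overlapped in each genotype. *Cpt2* lost its call in KO without KO sham 1, 2, 4 or 6 or KO ORX 1, 2, 4 or 5 (8 of 23 fits, adjusted p up to 0.0270).

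*Slc25a20* encodes the carnitine-acylcarnitine translocase of the inner membrane. WT libraries held *Slc25a20* between 67.4 and 94.5 CPM (median 86.5) in the sham and between 61.2 and 76.1 (median 71.2) in the ORX group. In KO, *Slc25a20* was between 89.0 and 109.99 CPM (median 94.8) in sham and at 63.7, 65.9, 69.1, 75.7 and 84.1 in ORX libraries. *Slc25a20* fell with ORX in KO (−0.46 ± 0.084, adjusted p = 0.000690), did not pass in WT (−0.27 ± 0.080, adjusted p = 0.0296), and the interaction had an adjusted p of 0.630. For *Slc25a20*, KO had every ORX library below every sham library, and the WT ranges overlapped. *Crat* encodes carnitine acetyltransferase, which buffers acetyl-CoA. In WT, *Crat* was between 273 and 312 CPM (median 297) in sham and between 237 and 266 (median 261) in ORX libraries. *Crat* in KO lay between 307 and 357 CPM (median 321) in sham and at 251, 254, 261, 265 and 289.6 in ORX. *Crat* fell with ORX in WT (−0.20 ± 0.050, adjusted p = 0.00718) and in KO (−0.31 ± 0.052, adjusted p = 0.000224). For *Crat*, both genotypes had every ORX library below every sham library. *Crat* lost its call in WT without WT sham 1, 2, 4 or 6 or WT ORX 2, 3, 4 or 6 (8 of 23 fits, adjusted p up to 0.0230).

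The beta-oxidation cycle was represented by 10 genes. The group's median log2 fold change was −0.27 in WT and −0.35 in KO. The acyl-CoA dehydrogenases take the first step. *Acadvl* encodes the very long-chain dehydrogenase, and 42.9% of its exon bases overlap *Dvl2* on the opposite strand, so its count is uncertain to that extent. *Acadvl* in WT lay between 158 and 213 CPM (median 185) in sham and between 124 and 154 (median 139) in ORX. KO libraries held *Acadvl* between 179 and 230.1 CPM (median 196) in the sham and at 131, 141, 161, 163 and 169 in the ORX group. *Acadvl* fell with ORX in WT (−0.44 ± 0.073, adjusted p = 0.000154) and in KO (−0.37 ± 0.076, adjusted p = 0.00201). For *Acadvl*, both genotypes had every ORX library below every sham library. *Acadl* encodes the long-chain dehydrogenase. WT libraries held *Acadl* between 108 and 150.3 CPM (median 133) in the sham and between 85.7 and 118 (median 103) in the ORX group. In KO, *Acadl* was between 139 and 179 CPM (median 153) in sham and at 103, 107, 111, 119 and 141 in ORX libraries. *Acadl* fell with ORX in WT (−0.37 ± 0.083, adjusted p = 0.00358) and in KO (−0.42 ± 0.087, adjusted p = 0.00219). Neither genotype had *Acadl* libraries of sham and ORX apart. *Acadm* encodes the medium-chain dehydrogenase. In WT, *Acadm* was between 288 and 407 CPM (median 362) in sham and between 264 and 318 (median 295) in ORX libraries. *Acadm* in KO lay between 368 and 444 CPM (median 385) in sham and at 271, 275, 280.5, 298 and 329 in ORX. *Acadm* fell with ORX in WT (−0.29 ± 0.067, adjusted p = 0.00425) and in KO (−0.44 ± 0.070, adjusted p = 0.000129). For *Acadm*, KO had every ORX library below every sham library, and the WT ranges overlapped. *Acads* encodes the short-chain dehydrogenase. *Acads* in WT lay between 51.1 and 57.9 CPM (median 56.3) in sham and between 47.3 and 55.9 (median 52.3) in ORX. KO libraries held *Acads* between 58.5 and 71.4 CPM (median 67.1) in the sham and at 52.5, 54.4, 54.8, 55.5 and 57.2 in the ORX group. *Acads* fell with ORX in KO (−0.28 ± 0.053, adjusted p = 0.00101), did not pass in WT (−0.085 ± 0.050, adjusted p = 0.344), and the interaction had an adjusted p of 0.356. For *Acads*, KO had every ORX library below every sham library, and the WT ranges overlapped. *Acadl* lost its call in WT without WT sham 1 or 2 or WT ORX 6 (3 of 23 fits, adjusted p up to 0.0132). *Acadm* lost its call in WT without WT sham 1, 2 or 3 or WT ORX 1 or 6 (5 of 23 fits, adjusted p up to 0.0158). The call of *Acadl* in KO was lost without KO ORX 4 (adjusted p = 0.0106). The call of *Acadvl* in KO was lost without KO ORX 5 (adjusted p = 0.0101).

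The later steps of the cycle are hydration, a further dehydrogenation and thiolysis. *Hadh* encodes the short-chain hydroxyacyl-CoA dehydrogenase. WT libraries held *Hadh* between 125 and 158 CPM (median 145) in the sham and between 104 and 119 (median 114) in the ORX group. In KO, *Hadh* was between 143 and 179 CPM (median 161) in sham and at 112, 119, 120.3, 122 and 144 in ORX libraries. *Hadh* fell with ORX in WT (−0.36 ± 0.065, adjusted p = 0.000358) and in KO (−0.38 ± 0.069, adjusted p = 0.000520). For *Hadh*, WT had every ORX library below every sham library, and the KO ranges overlapped. *Hadha* encodes the alpha subunit of the trifunctional protein, which handles long chains. In WT, *Hadha* was between 261 and 350.1 CPM (median 311) in sham and between 234 and 292 (median 261) in ORX libraries. *Hadha* in KO lay between 317 and 420.5 CPM (median 367) in sham and at 276, 278, 279, 297 and 348 in ORX. *Hadha* fell with ORX in KO (−0.32 ± 0.076, adjusted p = 0.00669), did not pass in WT (−0.25 ± 0.072, adjusted p = 0.0238), and the interaction had an adjusted p of 0.885. The ranges of *Hadha* overlapped in both genotypes. *Echs1*, which encodes the short-chain enoyl-CoA hydratase, passed in neither genotype. *Hadha* lost its call in KO without KO sham 1, 2 or 6 or KO ORX 1, 2, 4 or 5 (7 of 23 fits, adjusted p up to 0.0247).

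*Acaa2* encodes the mitochondrial thiolase that releases acetyl-CoA. *Acaa2* in WT lay between 141 and 215 CPM (median 179.8) in sham and between 121 and 156 (median 138) in ORX. KO libraries held *Acaa2* between 180.1 and 242 CPM (median 205) in the sham and at 138, 145, 149, 169 and 186 in the ORX group. *Acaa2* fell with ORX in WT (−0.37 ± 0.091, adjusted p = 0.00778) and in KO (−0.41 ± 0.096, adjusted p = 0.00527). For *Acaa2*, sham and ORX libraries overlapped in each genotype. *Acat1* encodes acetoacetyl-CoA thiolase, which also serves ketone bodies. WT libraries held *Acat1* between 210.3 and 257 CPM (median 241) in the sham and between 191 and 221 (median 213) in the ORX group. In KO, *Acat1* was between 254 and 283 CPM (median 259) in sham and at 203, 205, 215, 219 and 223 in ORX libraries. *Acat1* fell with ORX in KO (−0.30 ± 0.050, adjusted p = 0.000210), did not pass in WT (−0.18 ± 0.047, adjusted p = 0.0120), and the interaction had an adjusted p of 0.606. For *Acat1*, KO had every ORX library below every sham library, and the WT ranges overlapped. *Hadhb*, the beta subunit of the trifunctional protein, passed in neither genotype. *Acaa2* lost its call in WT without WT sham 1, 2, 3 or 6 or WT ORX 1, 3, 4, 5 or 6 (9 of 23 fits, adjusted p up to 0.0280). *Acaa2* lost its call in KO without KO sham 2, 4 or 6 or KO ORX 1, 4 or 5 (6 of 23 fits, adjusted p up to 0.0234).

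Acids with double bonds need the isomerases *Eci1* and *Eci2* and the reductase *Decr1*. None of the 3 was called with ORX in either genotype. Their median log2 fold change was −0.12 in WT and −0.26 in KO. The electron transfer flavoprotein takes electrons from the dehydrogenases and passes them on through *Etfdh*. In WT, *Etfdh* was between 138 and 179.9 CPM (median 166) in sham and between 117 and 136 (median 132) in ORX libraries. *Etfdh* in KO lay between 167 and 205 CPM (median 179) in sham and at 127, 129.6, 142, 145 and 158 in ORX. *Etfdh* fell with ORX in WT (−0.35 ± 0.063, adjusted p = 0.000467) and in KO (−0.37 ± 0.067, adjusted p = 0.000505). For *Etfdh*, both genotypes had every ORX library below every sham library. *Etfa* and *Etfb*, which encode the subunits of the flavoprotein, were called in neither genotype. The count of *Etfb* is uncertain, since 58.2% of its exon bases are shared with *Gm45233* and *Mir7051* on the same strand.

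Fuel choice and overflow was represented by 5 genes. The group's median log2 fold change was −0.27 in WT and −0.43 in KO. *Mlycd* encodes malonyl-CoA decarboxylase, which removes the brake on fatty acid entry. *Mlycd* in WT lay between 58.5 and 76.6 CPM (median 63.2) in sham and between 47.4 and 59.6 (median 56.9) in ORX. KO libraries held *Mlycd* between 70.8 and 78.9 CPM (median 75.5) in the sham and at 49.7, 53.9, 54.8, 56.2 and 65.8 in the ORX group. *Mlycd* fell with ORX in KO (−0.43 ± 0.070, adjusted p = 0.000209), did not pass in WT (−0.20 ± 0.066, adjusted p = 0.0498), and the interaction had an adjusted p of 0.445. For *Mlycd*, KO had every ORX library below every sham library, and the WT ranges overlapped. *Pdk4* encodes a kinase that closes pyruvate dehydrogenase. *Pdk4* was between 288 and 502 CPM (median 375) in WT sham, between 174 and 435 (median 251) in WT ORX, between 381 and 698 (median 535) in KO sham and at 156, 256, 288, 445 and 584 in KO ORX. Neither WT (−0.46 ± 0.23, adjusted p = 0.245) nor KO (−0.62 ± 0.24, adjusted p = 0.107) passed for *Pdk4*, and the ranges overlapped in both. *Ucp3* encodes the uncoupling protein of muscle. *Ucp3* was between 73.3 and 138 CPM (median 105) in WT sham, between 51.8 and 132 (median 84.6) in WT ORX, between 87.8 and 140.3 (median 108) in KO sham and at 48.4, 65.7, 83.2, 107 and 121 in KO ORX. *Ucp3* passed in neither WT (−0.27 ± 0.20, adjusted p = 0.462) nor KO (−0.40 ± 0.21, adjusted p = 0.243), and the ranges overlapped in both. *Acot2* encodes a mitochondrial thioesterase, and reads that fit its close paralog *Acot1*, with a median of 25 counts, cannot be told apart with certainty. *Acot2* in WT lay between 11.6 and 19.9998 CPM (median 14.4) in sham and between 8.72 and 13.1 (median 10.7) in ORX. KO libraries held *Acot2* between 13.7 and 18.8 CPM (median 16.9) in the sham and at 8.27, 8.97, 9.19, 10.6 and 14.0 in the ORX group. *Acot2* fell with ORX in KO (−0.70 ± 0.14, adjusted p = 0.00114), did not pass in WT (−0.43 ± 0.13, adjusted p = 0.0293), and the interaction had an adjusted p of 0.668. For *Acot2*, sham and ORX libraries overlapped in each genotype. *Acot13*, another thioesterase, was called in neither genotype.

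Whether ORX acted differently on the 32 genes in KO than in WT was asked with the interaction, the KO minus the WT effect. EdgeR called 0 of 32 in either direction, as did DESeq2 and limma-voom, where 0.0171% of all genes were called higher and 0.00571% lower. Unadjusted p-values were under 0.05 for 1683 of all 17514 genes, a larger share than the 2 of the 32. The 2 were *Acads*, at −0.19 ± 0.073 (adjusted p = 0.356), and *Mlycd*, at −0.22 ± 0.096 (adjusted p = 0.445). The median was −0.10 (−0.038 with library-size scaling), against 0.0032 for all genes. The larger number of calls in KO was thus not shown to be a difference between the genotypes. 27 of 32 were negative, and with library-size scaling the sign of *Lpl*, *Acadl*, *Hadh*, *Acaa2*, *Eci2*, *Decr1*, *Etfa* and *Etfdh* turned. With TMM, 3 of all genes were called higher and 1 lower, so the higher share of 75.0% rests on few genes. It was 100% with library-size scaling.

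The question of the DHT experiment was whether the 32 genes changed when androgen was given to young females of each genotype. In WT, 2 of 32 genes, *Echs1* and *Slc27a1*, were called lower, where 4.64% of all genes were called lower and 6.63% higher. EdgeR called 0 of the 32 higher in WT, where DESeq2 called 2 and limma-voom 1. An unadjusted p under 0.05 was found for 7 of the 32, with 5 higher. It was found for 5070 of all 16987 genes, a larger share. The median was 0.12 (0.054 with library-size scaling), against −0.0063 for all genes. 25 of 32 were positive, of which *Acadvl*, *Hadha*, *Etfa* and *Etfdh* turned negative with library-size scaling, and *Etfb* turned positive with limma-voom. The higher share of all called genes was 58.8% with TMM and 43.6% with library-size scaling.

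In KO, 5 of 32 genes were called higher with DHT, where 2.86% of all genes were called higher and 1.75% lower. They were *Fabp3*, *Slc25a20*, *Acadvl*, *Hadh* and *Acot2*. None of edgeR, DESeq2 and limma-voom called any of the 32 lower (0). At an unadjusted p under 0.05 were 18 of the 32, all higher, and 4278 of all 16987 genes. The median was 0.22, against −0.011 for all genes, and 28 of 32 were positive, where the sign of *Slc27a4* turned when TMM was computed without mitochondrially encoded genes. The count was 1, *Slc25a20*, with library-size scaling, 2 with only the groups compared, without *Fabp3*, *Acadvl* and *Hadh*, and 3 with a minimum of 10 counts, without *Acadvl* and *Acot2*. *Acot2* was also not called by limma-voom or with upper-quartile scaling. The count also depended on single libraries. It was 2 without WT empty 1 or 5, WT DHT 3, 4 or 6, KO empty 1, 2 or 4, or KO DHT 2, 4 or 5. It was 3 without WT empty 3, WT DHT 5, KO empty 5, or KO DHT 1, 3 or 6.

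Of the uptake and activation genes, *Slc27a1* was called in WT and *Fabp3* in KO. Their median log2 fold change was 0.13 in WT and 0.067 in KO. *Cd36* was at 292, 307, 330.2, 339 and 381 CPM in WT empty, between 319 and 396 (median 366) in WT DHT, at 279.7, 290.3, 336, 340.2 and 392 in KO empty and between 357 and 464 (median 392) in KO DHT. Neither WT (0.13 ± 0.087, adjusted p = 0.349) nor KO (0.29 ± 0.087, adjusted p = 0.0355) passed for *Cd36*, and the ranges overlapped in both. *Lpl* was at 244, 348, 348, 362 and 414 CPM in WT empty, between 299 and 446 (median 375) in WT DHT, at 314, 320.2, 393, 407 and 457 in KO empty and between 324 and 457 (median 399) in KO DHT. *Lpl* passed in neither WT (0.14 ± 0.13, adjusted p = 0.502) nor KO (0.081 ± 0.13, adjusted p = 0.751), and the ranges overlapped in both. *Fabp3* in WT lay at 32.7, 41.8, 48.5, 48.5 and 51.7 CPM in empty and between 52.7 and 85.0 (median 62.3) in DHT. KO libraries held *Fabp3* at 42.7, 50.6, 53.8, 57.4 and 75.2 CPM in the empty and between 70.3 and 115 (median 81.8) in the DHT group. *Fabp3* rose with DHT in KO (0.60 ± 0.14, adjusted p = 0.00796), did not pass in WT (0.53 ± 0.14, adjusted p = 0.0104), and the interaction had an adjusted p of 0.915. For *Fabp3*, WT had every DHT library above every empty library, and the KO ranges overlapped. *Fabp3* lost its call in KO without WT empty 1 or 5, WT DHT 3, 4 or 6, KO empty 1, 2, 4 or 5 or KO DHT 1, 2, 4 or 5 (13 of 22 fits, adjusted p up to 0.0281).

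WT libraries held *Slc27a1* at 65.9, 82.6, 85.8, 93.8 and 106 CPM in the empty and between 48.7 and 66.01 (median 58.3) in the DHT group. In KO, *Slc27a1* was at 71.5, 89.98, 94.8, 96.4 and 99.0 CPM in empty and between 62.7 and 92.5 (median 77.8) in DHT libraries. *Slc27a1* fell with DHT in WT (−0.57 ± 0.11, adjusted p = 0.000425), did not pass in KO (−0.21 ± 0.11, adjusted p = 0.234), and the interaction had an adjusted p of 0.253. Neither genotype had *Slc27a1* libraries of empty and DHT apart. *Acsl1* and *Slc27a4* passed in neither genotype. The next genes are those of the carnitine shuttle. The group's median log2 fold change was 0.10 in WT and 0.22 in KO. *Cpt1b* was at 1.91, 2.17, 2.66, 3.42 and 3.48 CPM in WT empty, between 2.44 and 4.44 (median 3.17) in WT DHT, at 2.34, 2.72, 2.96, 3.13 and 3.13 in KO empty and between 3.02 and 5.21 (median 4.03) in KO DHT. Neither WT (0.24 ± 0.17, adjusted p = 0.398) nor KO (0.51 ± 0.17, adjusted p = 0.0578) passed for *Cpt1b*, and the ranges overlapped in both. *Cpt1a* was at 12.7, 12.9, 16.3, 16.4 and 17.0 CPM in WT empty, between 15.1 and 20.7 (median 18.4) in WT DHT, at 12.9, 17.7, 18.0, 18.2 and 21.1 in KO empty and between 14.1 and 24.9 (median 18.3) in KO DHT. *Cpt1a* passed in neither WT (0.25 ± 0.14, adjusted p = 0.221) nor KO (0.047 ± 0.13, adjusted p = 0.875), and the ranges overlapped in both.

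*Cpt2* was at 37.4, 39.3, 43.9, 45.6 and 48.2 CPM in WT empty, between 41.1 and 47.5 (median 45.9) in WT DHT, at 42.0, 48.5, 52.5, 60.6 and 60.95 in KO empty and between 52.2 and 67.5 (median 59.1) in KO DHT. Neither WT (0.077 ± 0.092, adjusted p = 0.640) nor KO (0.17 ± 0.092, adjusted p = 0.242) passed for *Cpt2*, and the ranges overlapped in both. In WT, *Slc25a20* was at 57.9, 61.5, 66.1, 71.3 and 80.9 CPM in empty and between 65.3 and 77.6 (median 72.6) in DHT libraries. *Slc25a20* in KO lay at 63.6, 67.9, 73.2, 79.3 and 86.6 CPM in empty and between 94.4 and 108 (median 99.8) in DHT. *Slc25a20* rose with DHT in KO (0.44 ± 0.082, adjusted p = 0.000991), did not pass in WT (0.10 ± 0.082, adjusted p = 0.443), and the interaction had an adjusted p of 0.129. For *Slc25a20*, KO had every DHT library above every empty library, and the WT ranges overlapped. *Crat* was at 284, 291, 303, 321 and 324 CPM in WT empty, between 288 and 356 (median 325) in WT DHT, at 289, 323, 350.1, 351 and 380.2 in KO empty and between 374 and 411 (median 399) in KO DHT. *Crat* passed in neither WT (0.083 ± 0.067, adjusted p = 0.454) nor KO (0.22 ± 0.067, adjusted p = 0.0356), and the ranges overlapped in both.

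Of the 10 genes of the beta-oxidation cycle, *Acadvl* and *Hadh* were called with DHT in KO and *Echs1* in WT. Their median log2 fold change was 0.11 in WT and 0.23 in KO. WT libraries held *Acadvl* at 139, 146, 148, 149 and 176 CPM in the empty and between 136 and 173 (median 162) in the DHT group. In KO, *Acadvl* was at 138, 151, 158, 175 and 185 CPM in empty and between 185 and 211 (median 206) in DHT libraries. *Acadvl* rose with DHT in KO (0.32 ± 0.078, adjusted p = 0.00828), did not pass in WT (0.062 ± 0.078, adjusted p = 0.657, a direction that turned with library-size scaling), and the interaction had an adjusted p of 0.240. For *Acadvl*, KO had every DHT library above every empty library, and the WT ranges overlapped. *Acadm* was at 214, 225, 227, 239.9 and 281 CPM in WT empty, between 226 and 281 (median 261) in WT DHT, at 227, 235, 239, 248 and 285 in KO empty and between 269 and 306 (median 286) in KO DHT. Neither WT (0.12 ± 0.074, adjusted p = 0.307) nor KO (0.22 ± 0.074, adjusted p = 0.0545) passed for *Acadm*, and the ranges overlapped in both. *Acads* was at 54.2, 57.2, 59.7, 61.9 and 67.6 CPM in WT empty, between 65.6 and 72.9 (median 66.9) in WT DHT, at 66.2, 74.0, 76.8, 91.8 and 95.1 in KO empty and between 87.6 and 98.2 (median 93.4) in KO DHT. *Acads* passed in neither WT (0.18 ± 0.077, adjusted p = 0.106) nor KO (0.20 ± 0.076, adjusted p = 0.0908), and the ranges overlapped in both. *Acadl* passed in neither genotype. *Acadvl* lost its call in KO without WT empty 1, 3 or 5, WT DHT 3, 4, 5 or 6, KO empty 1, 2 or 4 or KO DHT 1, 2, 3, 4, 5 or 6 (16 of 22 fits, adjusted p up to 0.0318).

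In the later steps, *Echs1* and *Hadh* had opposite directions. WT libraries held *Echs1* at 93.1, 96.9, 99.4, 105 and 121 CPM in the empty and between 54.0 and 68.2 (median 62.2) in the DHT group. In KO, *Echs1* was at 85.2, 87.9, 88.6, 92.9 and 103 CPM in empty and between 71.7 and 94.6 (median 82.5) in DHT libraries. *Echs1* fell with DHT in WT (−0.75 ± 0.080, adjusted p = 1.66e-07), did not pass in KO (−0.13 ± 0.080, adjusted p = 0.328), and the interaction had an adjusted p of 0.00194. For *Echs1*, WT had every DHT library below every empty library, and the KO ranges overlapped. In WT, *Hadh* was at 98.7, 104, 106, 111 and 112 CPM in empty and between 117 and 133 (median 125) in DHT libraries. *Hadh* in KO lay at 113, 117, 118, 129.7 and 140.4 CPM in empty and between 138 and 170.2 (median 157) in DHT. *Hadh* rose with DHT in KO (0.33 ± 0.067, adjusted p = 0.00238), did not pass in WT (0.23 ± 0.067, adjusted p = 0.0180), and the interaction had an adjusted p of 0.677. For *Hadh*, WT had every DHT library above every empty library, and the KO ranges overlapped. *Hadha* was at 248, 249, 255, 264 and 305 CPM in WT empty, between 249.6 and 303 (median 274) in WT DHT, at 278, 289, 292, 302 and 345 in KO empty and between 324 and 382 (median 356) in KO DHT. Neither WT (0.061 ± 0.072, adjusted p = 0.634, a direction that turned with library-size scaling) nor KO (0.23 ± 0.072, adjusted p = 0.0370) passed for *Hadha*, and the ranges overlapped in both.

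*Acaa2* was at 125, 131, 138, 139.7 and 154 CPM in WT empty, between 133 and 167 (median 147) in WT DHT, at 133, 137, 142, 159 and 190.2 in KO empty and between 153 and 226 (median 187) in KO DHT. *Acaa2* passed in neither WT (0.10 ± 0.095, adjusted p = 0.520) nor KO (0.31 ± 0.095, adjusted p = 0.0349), and the ranges overlapped in both. *Acat1* was at 156, 162, 170.1, 170.2 and 203 CPM in WT empty, between 143 and 183 (median 163) in WT DHT, at 165, 165, 166, 171 and 171 in KO empty and between 183 and 205 (median 194) in KO DHT. Neither WT (−0.098 ± 0.067, adjusted p = 0.361) nor KO (0.22 ± 0.067, adjusted p = 0.0377) passed for *Acat1*, and KO had every DHT library above every empty library. *Hadhb* also passed in neither genotype.

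Neither the genes for unsaturated acids nor those of the electron transfer flavoprotein were called with DHT. *Eci1* was at 53.2, 53.4, 55.3, 57.1 and 73.0 CPM in WT empty, between 49.9 and 67.8 (median 55.4) in WT DHT, at 55.8, 58.1, 58.4, 61.1 and 63.4 in KO empty and between 60.8 and 75.4 (median 72.5) in KO DHT. *Eci1* passed in neither WT (−0.027 ± 0.085, adjusted p = 0.880) nor KO (0.26 ± 0.085, adjusted p = 0.0531), and the ranges overlapped in both. *Decr1* was at 101, 107, 107, 112 and 122 CPM in WT empty, between 109.98 and 137 (median 118) in WT DHT, at 113, 114, 116, 117 and 159 in KO empty and between 131 and 159.8 (median 151) in KO DHT. Neither WT (0.14 ± 0.083, adjusted p = 0.270) nor KO (0.27 ± 0.083, adjusted p = 0.0412) passed for *Decr1*, and the ranges overlapped in both. *Etfdh* was at 116, 124, 129, 137 and 147 CPM in WT empty, between 120.4 and 151 (median 137) in WT DHT, at 124, 125, 126, 135 and 155 in KO empty and between 152 and 171 (median 157) in KO DHT. *Etfdh* passed in neither WT (0.064 ± 0.073, adjusted p = 0.618, a direction that turned with library-size scaling) nor KO (0.27 ± 0.073, adjusted p = 0.0191), and the ranges overlapped in both. *Eci2*, *Etfa* and *Etfb* were not called either.

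Of the genes for fuel choice and overflow, *Acot2* was called in KO. The group's median log2 fold change was 0.23 in WT and 0.27 in KO. *Mlycd* was at 54.4, 64.8, 68.2, 69.5 and 86.4 CPM in WT empty, between 55.3 and 76.6 (median 65.6) in WT DHT, at 56.3, 67.2, 69.3, 69.9 and 72.6 in KO empty and between 70.4 and 92.2 (median 81.5) in KO DHT. Neither WT (−0.039 ± 0.10, adjusted p = 0.847) nor KO (0.29 ± 0.10, adjusted p = 0.0632) passed for *Mlycd*, and the ranges overlapped in both. *Pdk4* was at 289, 297, 368, 415 and 573 CPM in WT empty, between 498 and 719.5 (median 556) in WT DHT, at 249, 311, 631, 664 and 814 in KO empty and between 435 and 860.4 (median 664) in KO DHT. *Pdk4* passed in neither WT (0.61 ± 0.24, adjusted p = 0.0901) nor KO (0.27 ± 0.24, adjusted p = 0.540), and the ranges overlapped in both. *Ucp3* was at 105, 105, 110.4, 117 and 195 CPM in WT empty, between 135 and 189 (median 167) in WT DHT, at 95.3, 96.0, 143, 178 and 189.9 in KO empty and between 119.9 and 250.2 (median 147) in KO DHT. Neither WT (0.39 ± 0.20, adjusted p = 0.189) nor KO (0.16 ± 0.20, adjusted p = 0.686) passed for *Ucp3*, and the ranges overlapped in both. *Acot2* in WT lay at 9.94, 11.2, 13.0, 15.7 and 23.4 CPM in empty and between 13.8 and 23.5 (median 16.2) in DHT. KO libraries held *Acot2* at 10.7, 10.9, 11.7, 14.7 and 14.8 CPM in the empty and between 14.9 and 25.2 (median 22.5) in the DHT group. *Acot2* rose with DHT in KO (0.74 ± 0.18, adjusted p = 0.00992), did not pass in WT (0.23 ± 0.18, adjusted p = 0.433), and the interaction had an adjusted p of 0.355. For *Acot2*, KO had every DHT library above every empty library, and the WT ranges overlapped. *Acot13* passed in neither genotype. *Acot2* lost its call in KO without WT empty 1, 3 or 5, WT DHT 2, 3, 4, 5 or 6, KO empty 1, 2, 3, 4 or 5 or KO DHT 2, 3, 4, 5 or 6 (18 of 22 fits, adjusted p up to 0.0307).

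The interaction with DHT asked whether KO mice answered DHT differently from WT mice. EdgeR called 1 of 32 genes higher, *Echs1*, where 1.34% of all genes were called higher and 1.9% lower. The interaction of *Echs1* was 0.61 ± 0.11 (adjusted p = 0.00194), since it fell with DHT in WT and did not pass in KO. EdgeR called 0 lower, as did DESeq2 and limma-voom. Unadjusted p-values were under 0.05 for 2564 of all 16987 genes and for 7 of the 32, all higher. The other 6 of these were *Slc27a1*, *Slc25a20*, *Acadvl*, *Acat1*, *Eci1* and *Mlycd*. The median was 0.10, against −0.0094 for all genes. The count became 2 with DESeq2, with library-size scaling, and without WT empty 5 or WT DHT 6. Library-size scaling moved the higher share of all called genes from 41.5% to 55.1%.

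The ORX and DHT experiments share no libraries, so the signs of the 2 treatments were compared gene by gene. In WT, 25 of 32 genes (78.1%) were negative with ORX and positive with DHT, against 30.3% of the 16642 genes in both tables. The exceptions in WT were *Slc27a1*, *Slc27a4*, *Echs1*, *Acat1*, *Eci1*, *Etfb* and *Mlycd*. In KO, 28 of 32 (87.5%) had this pattern, against 29.9% of all genes. The exceptions in KO were *Slc27a1*, *Slc27a4*, *Echs1* and *Etfa*. Many of these signs belong to genes that were not called, and library-size scaling turned the WT signs of *Acot13* with ORX and of *Acadvl*, *Hadha*, *Etfa* and *Etfdh* with DHT. All 5 genes called higher with DHT in KO were among the 16 called lower with ORX in KO (100% and 31.2% of the lists). Of all genes in both tables, the shares were 48.2% and 36.7%. In WT, where edgeR called 0 of the 32 higher with DHT, none of the 9 called lower with ORX could be shared, against 63.3% over all genes. Whether the 32 genes differ in this from other genes was not tested.

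**Figure D1:**
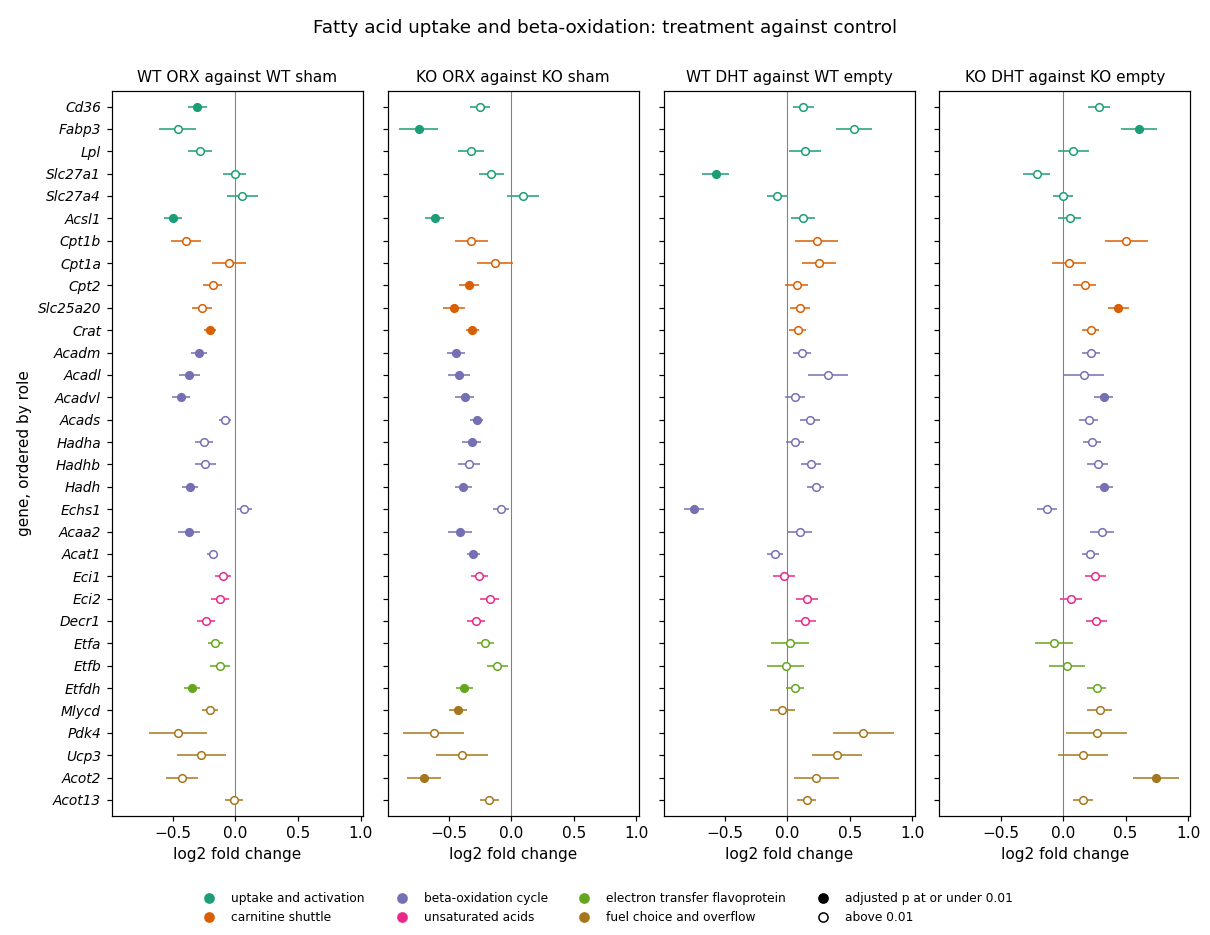
Log2 fold change and standard error of the 32 genes for ORX against sham and DHT against empty in each genotype, coloured by role, with filled points for genes that passed. The sign turned with library-size scaling for Slc27a1 (also with upper-quartile scaling and limma-voom) and Acot13 with ORX in WT, Echs1 with ORX in KO and Acadvl, Hadha, Etfa and Etfdh with DHT in WT, for Etfb with DHT in WT with limma-voom, and for Slc27a4 with DHT in KO without mitochondrially encoded genes in TMM.

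Whether loss of *Actn3* itself shifted the 32 genes was asked by comparing KO with WT within each treatment, in the same libraries. With sham surgery, 1 of 32 genes was called higher in KO, *Acads*, where 2.48% of all genes were called higher and 2.82% lower. EdgeR called 0 lower, as did DESeq2 and limma-voom. An unadjusted p under 0.05 was found for 21 of the 32, all higher, and for 4082 of all 17514 genes. *Acads* was higher by a log2 fold change of 0.28 ± 0.050 (adjusted p = 0.000510), and every KO sham library was above every WT sham library. The median was 0.19, against −0.0069 for all genes, and all 32 were positive. The count was 2 with DESeq2 and without KO ORX 3, WT sham 1 or WT sham 2. Since all KO sham libraries were the smaller, genotype and depth cannot be told apart here.

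After ORX, edgeR called 0 of 32 genes between KO and WT in either direction, and so did DESeq2 and limma-voom, where 1.07% of all genes were called higher and 2.73% lower. At an unadjusted p under 0.05 were 3313 of all 17514 genes, a larger share than the 5 of the 32. The 5 genes were *Acadl*, *Hadha*, *Hadh*, *Decr1* and *Etfb*, all higher in KO. Of these, *Hadh* had a log2 fold change of 0.14 ± 0.068 (adjusted p = 0.256) and *Etfb* of 0.21 ± 0.083 (adjusted p = 0.139). The median was 0.11, against 0.0086 for all genes. 27 of 32 were positive, while *Acadm*, *Ucp3* and *Acot13* changed sign with library-size scaling, *Acadm* also with upper-quartile scaling. The median deviation of the 32 genes was 0.118 in KO ORX 3 and −0.185 to −0.0710 in the other KO ORX libraries. Without KO ORX 3 the median was 0.043, and *Slc27a1*, *Slc25a20*, *Echs1*, *Eci1* and *Mlycd* turned negative. *Acads*, called with sham surgery, was at 0.082 ± 0.053 (adjusted p = 0.437). Of all called genes, 28.2% were higher with TMM and 46.9% with library-size scaling.

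With the empty implant, 1 of 32 genes was called higher in KO, where 1.75% of all genes were called higher and 2.5% lower. It was again *Acads*, with a log2 fold change of 0.43 ± 0.080 (adjusted p = 0.00122), and its KO and WT ranges overlapped. *Acads* lost this call with only the groups compared. EdgeR, DESeq2 and limma-voom called 0 lower. Unadjusted p-values were under 0.05 for 7 of the 32, all higher, and for 3969 of all 16987 genes, a larger share. The median was 0.14, against 0.013 for all genes, and 27 of 32 were positive, while *Cd36*, *Acat1* and *Mlycd* changed sign with library-size scaling. *Hadh*, at 0.22 ± 0.070 (adjusted p = 0.0526), was the only gene with every KO empty library above every WT empty library. The higher share of all called genes was 41.3% with TMM and 52.9% with library-size scaling.

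With DHT, 13 of 32 genes were called higher in KO, where 5.13% of all genes were called higher and 6.51% lower. EdgeR called 0 lower with DHT, as did DESeq2 and limma-voom. At an unadjusted p under 0.05 were 20 of the 32, all higher, and 5034 of all 16987 genes. The median was 0.29, against 0.0064 for all genes, and 31 of 32 were positive, while *Ucp3* changed sign with library-size scaling and *Cpt1a* with limma-voom. This comparison shares its KO DHT and WT DHT libraries with the DHT effects above, so the lists are not independent. Of the 13, *Acads* was also called with the empty implant, and the interaction was called for *Echs1* alone. The count fell to 8 without WT DHT 4. Library-size scaling moved the higher share of all called genes from 44.1% to 65.3%.

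Of the genes for uptake and transport, *Slc27a1* was higher in KO DHT than in WT DHT by a log2 fold change of 0.42 ± 0.10 (adjusted p = 0.00548). The carnitine shuttle had 3 calls, led by the translocase *Slc25a20* at 0.47 ± 0.078 (adjusted p = 8.91e-05). *Cpt2* followed at 0.40 ± 0.088 (adjusted p = 0.00173). *Crat* was higher by 0.29 ± 0.064 (adjusted p = 0.00196). For *Slc25a20*, *Cpt2* and *Crat* every KO library lay above every WT library, and for *Slc27a1* the ranges overlapped. *Slc27a1* lost its call in KO DHT against WT DHT without WT DHT 2, 3 or 4 or KO DHT 2, 4 or 6 (6 of 22 fits, adjusted p up to 0.0189).

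The beta-oxidation cycle held 7 of the 13 calls. Among the dehydrogenases, *Acads* was higher by 0.45 ± 0.073 (adjusted p = 7.57e-05) and *Acadvl* by 0.35 ± 0.074 (adjusted p = 0.00113). *Echs1* differed by 0.44 ± 0.077 (adjusted p = 0.000160), where it had fallen with DHT in WT. For *Acads*, *Acadvl* and *Echs1* all KO libraries lay above all WT libraries. *Hadha* was higher by 0.36 ± 0.068 (adjusted p = 0.000388) and *Hadh* by 0.32 ± 0.064 (adjusted p = 0.000743). The thiolase genes *Acaa2* and *Acat1* were called too, *Acaa2* at 0.36 ± 0.090 (adjusted p = 0.00602) and *Acat1* at 0.28 ± 0.064 (adjusted p = 0.00285). The KO and WT ranges were apart for *Hadha*, *Hadh* and *Acat1* and overlapped for *Acaa2*. *Acaa2* lost its call in this comparison without WT DHT 2, 3, 4 or 5 or KO DHT 4, 5 or 6 (7 of 22 fits, adjusted p up to 0.0214). The call of *Acat1* in this comparison was lost without WT DHT 4 (adjusted p = 0.0104).

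For unsaturated acids, *Eci1* was higher in KO DHT by 0.31 ± 0.081 (adjusted p = 0.00800) and *Decr1* by 0.30 ± 0.079 (adjusted p = 0.00873). The ranges of *Eci1* and *Decr1* overlapped. *Eci1* lost its call in KO DHT against WT DHT without WT DHT 1, 2, 3 or 4 or KO DHT 2, 3, 4, 5 or 6 (9 of 22 fits, adjusted p up to 0.0260). *Decr1* lost its call in KO DHT against WT DHT without WT empty 3, 4 or 5, WT DHT 1, 2, 3 or 4, KO empty 1 or KO DHT 2, 3, 4, 5 or 6 (13 of 22 fits, adjusted p up to 0.0267). *Etfdh* was not called at 0.23 ± 0.069 (adjusted p = 0.0204), although every KO DHT library lay above every WT DHT library. *Pdk4* at 0.12 ± 0.23 (adjusted p = 0.796) and *Cd36* at 0.15 ± 0.083 (adjusted p = 0.253) were not called, and their ranges overlapped.

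**Figure D2:**
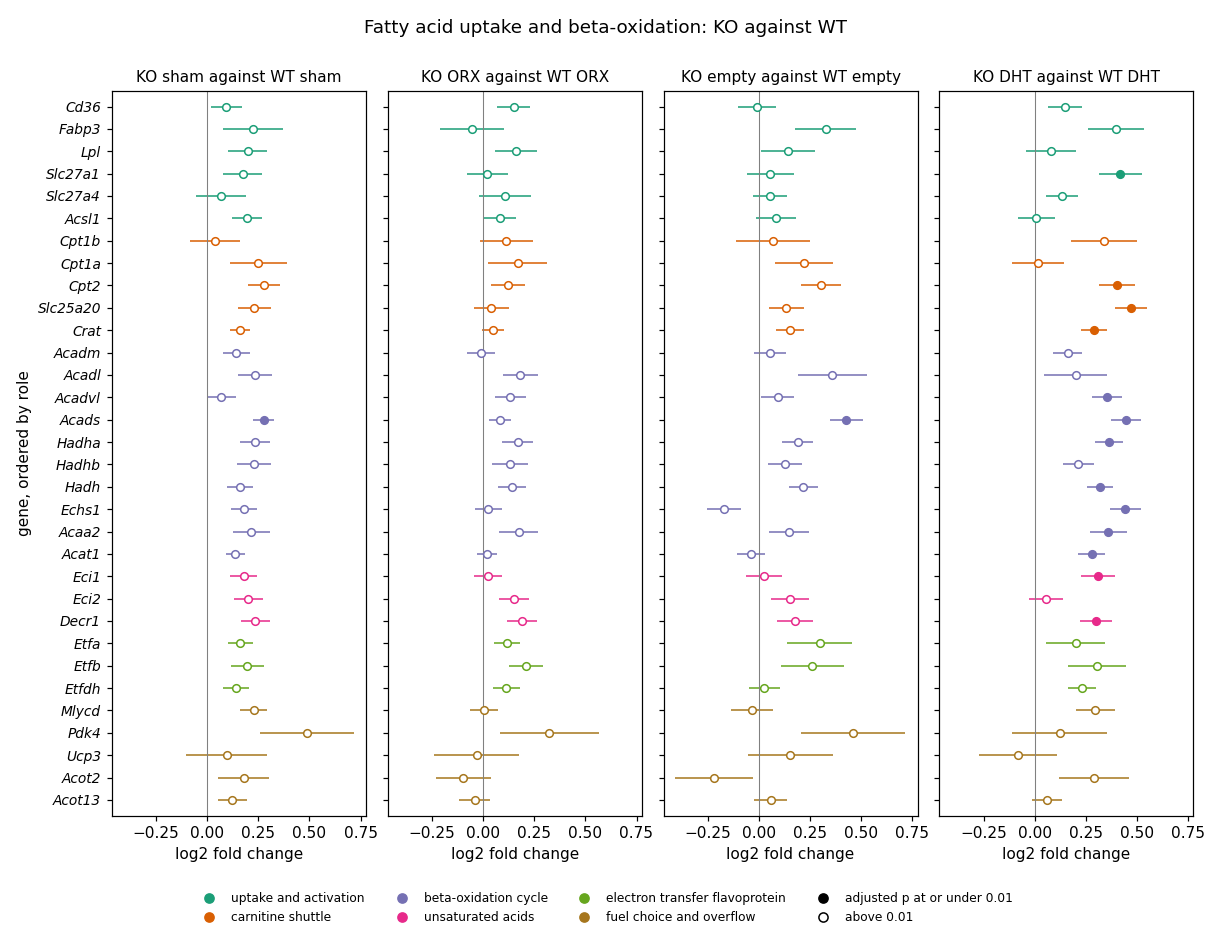
Log2 fold change and standard error of the 32 genes in KO against WT within each treatment, with filled points for genes that passed. With library-size scaling the sign turned for Acadm, Ucp3 and Acot13 after ORX (Acadm also with upper-quartile scaling), Cd36, Acat1 and Mlycd with the empty implant and Ucp3 with DHT, where that of Cpt1a turned with limma-voom.

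**Figure D3:**
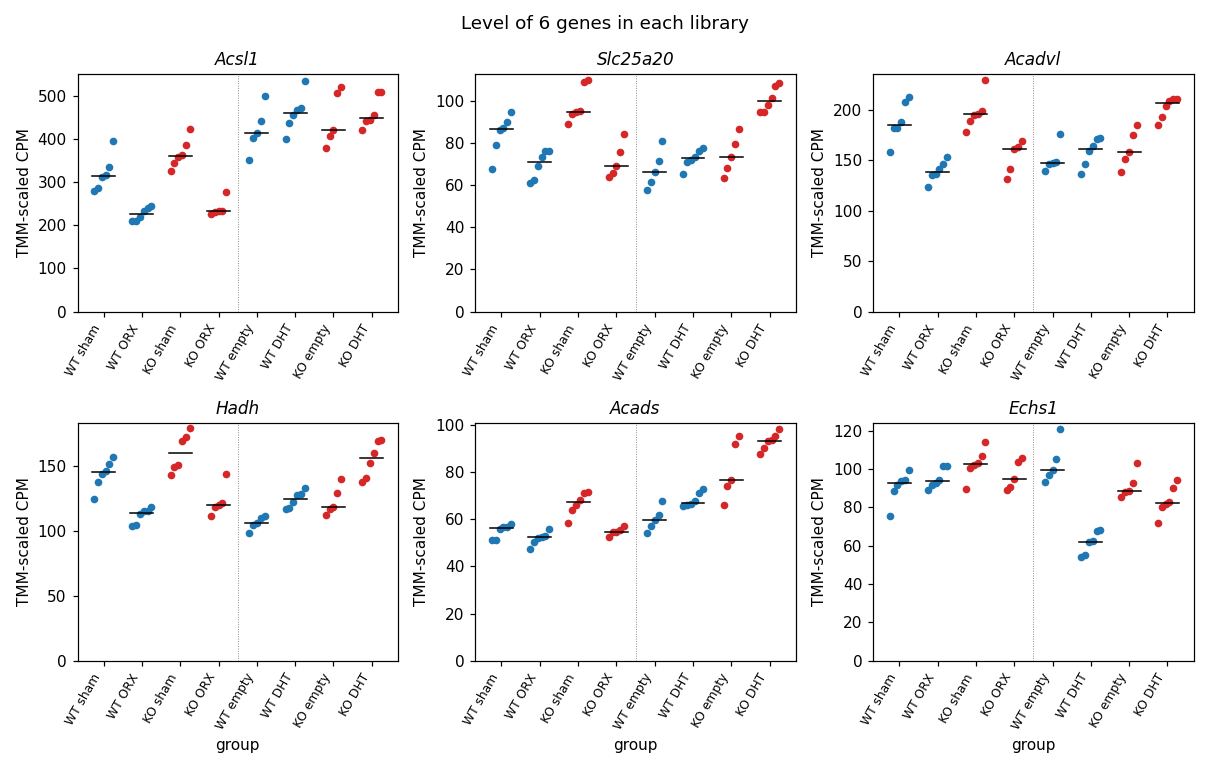
TMM-scaled CPM of Acsl1, Slc25a20, Acadvl, Hadh, Acads and Echs1 in each library of the 8 groups, with a line at the median. Blue points are WT and red points are KO.

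The genes around the 32 were read from 9 lists, with the log2 fold change of up to 3 called genes per comparison. KO against WT was read within each sex. For each comparison, the shares over all genes given above also stand beside these lists and the markers below. For ketone body use, the genes called in KO against WT are counted but not named. Regulators of fatty acid oxidation, such as *Esrra* and *Perm1*, which drive the genes of oxidative metabolism, were 18 genes, all in both tables. With ORX, 2 were lower in WT (*Esrra* −0.40, *Perm1* −0.41) and 3 were lower in KO (*Esrra* −0.46, *Perm1* −0.42, *Rxrg* −0.31). With DHT, 2 were higher and 1 lower in WT (*Klf15* −1.74, *Sirt3* 0.34, *Esrra* 0.34) and 1 was higher in KO (*Esrra* 0.56). In KO against WT males, 1 was lower with sham surgery (*Rxra* −0.27) and 2 were lower after ORX (*Rxra* −0.42, *Rxrg* −0.43). Between KO and WT females, 3 were lower with the empty implant (*Rxrg* −0.67, *Rxra* −0.43, *Lpin1* −0.52) and 2 were higher and 2 lower with DHT (*Rxra* −0.44, *Rxrg* −0.41, *Klf15* 0.70). In the interaction, 1 was higher with DHT (*Klf15* 1.24). By edgeR, DESeq2 and limma-voom, 0 were called in the ORX interaction, with 1 gene at an unadjusted p under 0.05.

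Malonyl-CoA synthesis and its control by AMPK were 11 genes, all in both tables. With ORX, 1 was higher in KO (*Acaca* 0.58). With DHT, 1 was higher and 2 lower in WT (*Prkag3* −0.77, *Prkab2* −0.31, *Acacb* 0.40). In KO compared with WT males, 1 was higher with sham surgery (*Prkag3* 0.36) and 1 was higher and 1 lower after ORX (*Acaca* 0.48, *Prkab2* −0.31). In KO against WT females, 1 was lower with the empty implant (*Prkab2* −0.35) and 1 was higher and 1 lower with DHT (*Prkag3* 1.35, *Acacb* −0.37). In the interaction, 2 were higher and 1 lower with DHT (*Prkag3* 1.09, *Prkab2* 0.48, *Acacb* −0.46). EdgeR called 0 in WT ORX against sham, KO DHT against empty and the ORX interaction, with 3, 4 and 3 genes at an unadjusted p under 0.05, where DESeq2 called 0, 0 and 2 and limma-voom 0. Carnitine supply was 6 genes, with 4 in the gastrocnemius and 4 in the spinalis table. With DHT, 1 was lower in WT (*Slc25a29* −0.76). Between KO and WT females, 1 was higher with DHT (*Slc25a29* 0.59). For the interaction, 1 was higher with DHT (*Slc25a29* 0.68). EdgeR, DESeq2 and limma-voom called 0 in WT ORX against sham, KO ORX against sham, KO DHT against empty, KO against WT with sham surgery, KO against WT after ORX, KO against WT with the empty implant and the ORX interaction, with 0, 0, 1, 0, 0, 0 and 0 genes at an unadjusted p under 0.05.

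Storage and release of lipid were 19 genes, all in both tables. With ORX, 4 were lower in WT (*Vldlr* −1.03, *Plin3* −0.52, *Pnpla2* −0.34) and 5 were lower in KO (*Vldlr* −0.86, *Plin3* −0.53, *Abhd5* −0.22). With DHT, 1 was higher and 4 lower in WT (*Vldlr* 0.95, *Plin4* −0.52, *Lmf1* −0.30) and 2 were higher and 1 lower in KO (*Vldlr* 0.67, *Gpihbp1* 0.53, *Plin4* −0.51). In KO compared with WT males, 1 was lower with sham surgery (*Vldlr* −0.67) and 1 was lower after ORX (*Vldlr* −0.50). In KO against WT females, 2 were lower with the empty implant (*Vldlr* −0.31, *Plin4* −0.57) and 3 were higher and 2 lower with DHT (*Vldlr* −0.59, *Lmf1* 0.43, *Plin4* −0.56). EdgeR called 0 in the ORX interaction and the DHT interaction, with 1 and 4 genes at an unadjusted p under 0.05, where DESeq2 called 0 and 1 and limma-voom 0.

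Peroxisomal oxidation was 17 genes, with 15 in the gastrocnemius and 17 in the spinalis table. With ORX, 3 were lower in WT (*Abcd3* −0.25, *Phyh* −0.31, *Crot* −0.25) and 2 were lower in KO (*Phyh* −0.44, *Abcd3* −0.23). With DHT, 2 were higher in WT (*Phyh* 0.52, *Crot* 0.40) and 1 was higher in KO (*Phyh* 0.60). Another 2 were lower with DHT in WT and are not named here. Between KO and WT males, 1 was higher with sham surgery (*Scp2* 0.23). In KO compared with WT females, 1 was higher with the empty implant (*Pex11a* 0.61) and 5 were higher and 1 lower with DHT (*Crot* −0.38, *Pex11a* 0.60, *Scp2* 0.27). No tool, edgeR, DESeq2 or limma-voom, called more than 0 in KO against WT after ORX, the ORX interaction and the DHT interaction, with 4, 0 and 5 genes at an unadjusted p under 0.05. Other acyl-CoA synthetases, binding proteins and thioesterases were 20 genes, with 16 in the gastrocnemius and 17 in the spinalis table. With ORX, 1 was lower in WT (*Acsl4* −0.24) and 1 was lower in KO (*Acot11* −0.59). With DHT, 2 were higher and 1 lower in WT (*Acss1* 0.50, *Acot7* 0.39, *Acot9* −0.30) and 2 were higher and 1 lower in KO (*Acot9* −0.47, *Acot7* 0.52, *Acsl3* 0.62). In KO against WT males, 1 was higher and 2 lower with sham surgery (*Acot9* 0.48, *Acsl4* −0.33, *Acsl3* −0.55) and 1 was higher after ORX (*Acot9* 0.65). Between KO and WT females, 1 was higher and 2 lower with the empty implant (*Acot9* 0.65, *Acsl3* −0.92, *Acsl4* −0.35) and 1 was higher and 3 lower with DHT (*Acot9* 0.48, *Acsl4* −0.48, *Acsl3* −0.68). EdgeR, DESeq2 and limma-voom called 0 in the ORX interaction and the DHT interaction, with 2 and 1 genes at an unadjusted p under 0.05.

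Other mitochondrial oxidation enzymes, many of which break down branched-chain amino acids, were 19 genes, with 18 in the gastrocnemius and 18 in the spinalis table. With ORX, 3 were higher and 1 lower in WT (*Pcca* −0.32, *Acadsb* 0.29, *Gcdh* 0.38) and 1 was lower in KO (*Acad8* −0.22). With DHT, 8 were lower in WT (*Ivd* −1.13, *Acadsb* −0.89, *Gcdh* −0.96) and 2 were lower in KO (*Acadsb* −0.39, *Gcdh* −0.35). In KO compared with WT males, 11 were higher with sham surgery (*Acad8* 0.42, *Ivd* 0.45, *Pccb* 0.29) and 2 were higher after ORX (*Acad8* 0.26, *Acad9* 0.26). In KO against WT females, 1 was higher with the empty implant (*Acad8* 0.36) and 11 were higher with DHT (*Ivd* 1.07, *Acad11* 0.55, *Gcdh* 0.62). For the interaction, 6 were higher with DHT (*Ivd* 0.89, *Acadsb* 0.49, *Acad11* 0.44). By edgeR, DESeq2 and limma-voom, 0 were called in the ORX interaction, with 11 genes at an unadjusted p under 0.05.

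Ketone body use was 6 genes, all in both tables. With ORX, 1 was lower in WT (*Bdh1* −1.04) and 1 was lower in KO (*Bdh1* −1.11). With DHT, 1 was higher and 1 lower in WT (*Oxct1* −0.86, *Bdh1* 1.64) and 1 was higher in KO (*Bdh1* 1.55). Of the 6, 1 was higher in KO than in WT males with sham surgery and 1 was higher after ORX. KO against WT females had 1 higher and 1 lower with the empty implant and 1 higher with DHT. For the interaction, 1 was higher with DHT (*Oxct1* 0.77). No tool, edgeR, DESeq2 or limma-voom, called more than 0 in the ORX interaction, with 1 gene at an unadjusted p under 0.05. Other pyruvate dehydrogenase kinases and phosphatases and uncoupling proteins were 8 genes, with 7 in the gastrocnemius and 8 in the spinalis table. With DHT, 1 was higher and 1 lower in WT (*Pdp2* −0.85, *Pdp1* 0.35) and 1 was higher in KO (*Pdp1* 0.52). In KO against WT males, 1 was higher with sham surgery (*Pdk1* 0.18) and 1 was higher after ORX (*Pdk1* 0.19). Between KO and WT females, 1 was higher with DHT (*Ucp2* 0.78). EdgeR called 0 in WT ORX against sham, KO ORX against sham, KO against WT with the empty implant, the ORX interaction and the DHT interaction, with 4, 5, 1, 2 and 0 genes at an unadjusted p under 0.05, where DESeq2 called 0, 2, 1, 0 and 0 and limma-voom 0.

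Markers of 12 fibre and cell types were read beside the ORX effects, and their part in the result was not tested. Of 5 myofibre markers, *Mb* and *Des* were called lower in each genotype, *Mb* at −0.50 ± 0.12 (adjusted p = 0.00920) in WT and −0.56 ± 0.13 (adjusted p = 0.00552) in KO. The other 3 myofibre markers were positive in WT, while all 5 were negative in KO. The fast IIX gene *Myh1* fell in WT, at −0.61 ± 0.14 (adjusted p = 0.00499), and in KO, at −0.61 ± 0.15 (adjusted p = 0.00743), as 1 of 2 listed genes. Of 3 fast glycolytic genes, *Pvalb* and *Actn3* were called higher in WT. EdgeR, DESeq2 and limma-voom called 0 of 7 slow fibre genes, with 4 in WT and 1 in KO at an unadjusted p under 0.05. Their median summed CPM was 799.7 in WT sham, 972 in WT ORX, 881 in KO sham and 1015 in KO ORX. Of 8 white adipocyte markers, 1 was called higher in each genotype, *Car3*, at 0.84 ± 0.089 (adjusted p = 1.87e-07) in WT and 0.94 ± 0.093 (adjusted p = 1.09e-07) in KO. Among the 8, 5 were negative in WT and 3 in KO. *Car3* is also expressed by muscle, and it made up most of the summed CPM of this list, with medians of 1856 in WT sham, 3044 in WT ORX, 1192 in KO sham and 1992 in KO ORX.

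Of 5 fibroblast markers, *Lum* was higher with ORX in both genotypes and *Pdgfra* lower in WT. Among the 5, 4 were negative in WT and 1 in KO. Of 5 macrophage and leukocyte markers, *Csf1r* was called lower in WT, where 3 were positive. All 3 tools, edgeR, DESeq2 and limma-voom, called 0 of 6 endothelial genes (0 in WT and 1 in KO at an unadjusted p under 0.05), 3 satellite cell genes (1 and 0), 4 Schwann cell genes (0 and 0), 4 red blood cell genes (1 and 0) and 2 brown adipocyte genes (0 and 1). Of 5 listed brown adipocyte markers, *Ucp1*, *Elovl3* and *Otop1* were not in the gastrocnemius table.

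With DHT, of 5 myofibre markers *Mb* and *Des* were called higher in WT, *Mb* at 0.79 ± 0.15 (adjusted p = 0.000498), while 2 of the 5 were negative. Of 3 fast glycolytic genes, *Actn3* was called lower in WT, at −0.44 ± 0.090 (adjusted p = 0.000810). EdgeR called 0 of 7 slow fibre genes, with 6 in WT and 7 in KO at an unadjusted p under 0.05, while DESeq2 called 0 and 1 and limma-voom 0 and 2. Their median summed CPM was 966 in WT empty, 449 in WT DHT, 1715 in KO empty and 428 in KO DHT. Of 6 endothelial genes, *Pecam1* and *Tie1* were called higher in WT, and *Tie1* and *Gpihbp1* in KO, with 1 of the 6 negative in each genotype. Of 8 white adipocyte markers, *Cfd* was lower in WT and *Car3* lower in KO, with median summed CPM of 7078 in WT empty, 5679 in WT DHT, 6315 in KO empty and 4615 in KO DHT. Of 5 fibroblast markers, *Dcn* was higher in both genotypes, *Pdgfra* lower in WT and *Lum* lower in KO.

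Brown fat lies beside the spinalis between the shoulders, and all 5 of its markers were in that table. Of them, *Zic1* was called higher with DHT in WT, while the other 4 were negative and not called. With DHT in KO all 5 were positive, with a median log2 fold change of 0.59, and edgeR, DESeq2 and limma-voom called 0. In KO DHT 6, the summed CPM of these markers was 249, with *Ucp1* at 157 CPM, whereas the other KO DHT libraries held 15.5 to 19.8. The group medians were 41.7 in WT empty, 35.9 in WT DHT, 27.9 in KO empty and 18.1 in KO DHT. The part of brown fat was not tested. In KO DHT 6, the median deviation of the 32 genes was 0.315, the highest of the 22 DHT and empty libraries, followed by KO DHT 5 at 0.286, where the brown fat markers summed to 17.7 CPM. Without KO DHT 6, the calls were 3 with DHT in KO and 9 in KO against WT with DHT. Leaving out other libraries gave counts as low or lower. With DHT in KO there were 2 calls without KO DHT 2, 4 or 5. In KO against WT with DHT there were 8 without WT DHT 4 and 9 without KO DHT 4. EdgeR called 0 of 5 macrophage and leukocyte genes, with 0 in WT and 1 in KO at an unadjusted p under 0.05, while DESeq2 called 0 and 1 and limma-voom 0 and 0. The same 3 tools called 0 of 3 satellite cell genes (2 in WT and 0 in KO at an unadjusted p under 0.05), 4 Schwann cell genes (1 and 0), 4 red blood cell genes (1 and 0) and 2 fast IIX and IIA genes (0 and 0).

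Between the genotypes with sham surgery, the markers called other than *Actn3* were *Myf5* higher and *Acta1*, *Des*, *Car3* and *Csf1r* lower in KO. After ORX, *Ckm*, *Acta1*, *Des* and *Car3* were lower in KO. Among the 8 white adipocyte markers, 7 were positive with sham surgery and 6 after ORX. With DHT, *Pax7* and *Myf5* were higher and *Acta1*, *Car3* and *Zic1* lower in KO, where all other white and brown adipocyte markers were positive and not called. Among the 3 satellite cell markers, 1 was negative with DHT. Brown adipocyte markers summed to 249 CPM in KO DHT 6, while the group medians were 18.1 in KO DHT and 35.9 in WT DHT. Whether KO DHT 6 set their positive signs was not tested. With the empty implant edgeR called 0 markers other than *Actn3*, with 13 at an unadjusted p under 0.05, where DESeq2 called 1 and limma-voom 0.

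Promoters of the 32 genes were searched for 3 motifs on both strands, in RefSeq windows of GRCm38.p6 from 250 bases before to 50 bases after the start, and a match is only a description. Of the 32, 25 genes had an entry, with 28 windows. The ERR element TCAAGGTCA was found in 0 of them, against 0.423% of all 32851 windows, and the DR1 element that PPAR binds in 0, against 0.128%. The androgen or glucocorticoid receptor half-site TGTTCT was found in 2, those of *Hadh* and *Mlycd* (7.14%), against 19% of all windows. Capitals mark the half-site in *Hadh*, at chr3:131272052-131272351 on the minus strand, and its reverse complement in *Mlycd*, at chr8:119394644-119394943 on the plus strand. They are shown as the only 2 with a match.
Hadh: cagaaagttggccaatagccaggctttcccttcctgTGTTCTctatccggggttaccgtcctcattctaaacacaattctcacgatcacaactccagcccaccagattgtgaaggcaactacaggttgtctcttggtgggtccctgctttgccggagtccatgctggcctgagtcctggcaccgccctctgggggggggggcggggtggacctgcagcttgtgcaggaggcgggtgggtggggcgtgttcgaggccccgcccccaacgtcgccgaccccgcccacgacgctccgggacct
Mlycd: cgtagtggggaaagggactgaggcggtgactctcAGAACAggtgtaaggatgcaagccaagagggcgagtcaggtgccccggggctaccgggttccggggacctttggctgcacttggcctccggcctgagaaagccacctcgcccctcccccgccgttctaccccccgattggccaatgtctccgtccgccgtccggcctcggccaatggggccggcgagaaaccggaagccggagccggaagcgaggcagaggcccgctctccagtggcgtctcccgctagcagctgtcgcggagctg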

How the data were processed

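Gene counts as deposited by the authors were used, 1 table per experiment. Per the submitters' processing notes, stranded total RNA libraries (Illumina TruSeq, NovaSeq) were aligned to GRCm39 with STAR 2.7.1b and counted with featureCounts, with SAMtools 1.9, Picard 2.20.2 and Subread 2.0.0 also named. The notes do not state the annotation, the strand setting or the use of marked duplicates in counting. Exon overlaps, lengths and symbols came from GENCODE M21 (GRCm38) and may differ from the annotation used for the counts.

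In R 4.3.3, edgeR 4.0.16 fitted 4 group means per table with TMM scaling and a quasi-likelihood F test. The filter of 0.5 CPM in at least 2 libraries removed 0 genes. Library totals of 26.7 to 55.4, in units of 1e6 counts, set the precision. The 46th described sample, KO ORX 6, was not analysed here, and DHT columns were matched to samples by group only. The alternatives were DESeq2 1.42.0, limma-voom (limma 3.58.1), library-size and upper-quartile scaling, TMM without mitochondrially encoded genes, no filter, at least 10 counts in every library, only the groups compared, the other threshold, a replicate block and leaving out each library. Scripts were tested on simulated data, where the limits for recovery of known changes were loosened after the first outputs were seen. Python 3.11.15 with matplotlib 3.10.9 made the figures.

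The 32 genes and all lists were chosen with earlier results of these data known. The named genes were those called in any of the 10 comparisons, with *Cd36*, *Lpl*, *Fabp3*, *Cpt1b*, *Cpt1a*, *Cpt2*, *Acadvl*, *Acadm*, *Hadha*, *Etfdh*, *Mlycd*, *Pdk4* and *Ucp3* in any case, and up to 3 called genes per list and comparison with the smallest p. Some genes of these lists are not reported here. The lists held regulators of fatty acid oxidation, malonyl-CoA and AMPK, carnitine supply, lipid storage and lipolysis, peroxisomal oxidation, other acyl-CoA synthetases, binding proteins and thioesterases, other mitochondrial oxidation enzymes, ketone body use, other pyruvate dehydrogenase kinases and uncoupling proteins, and markers of 12 fibre and cell types.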

Additional observations from a re-analysis of the deposited data

Results flagged for a closer look

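In 12 of 256 groups of a gene, the highest or lowest library stood apart, with a gap to the next that took more of the group's range of log2 CPM than the limit for its size. Chance flags about 1 in 20 groups, 12.8 expected here. KO ORX 3 was the highest of its group for *Acsl1* (share of the range 0.851), *Cpt2* (0.83) and *Etfb* (0.726). WT empty 2 was the highest for *Acadvl* (0.728), *Eci1* (0.779) and *Ucp3* (0.821). KO DHT 1 was the lowest for *Eci1* (0.645) and *Eci2* (0.717), and KO DHT 4 the highest for *Ucp3* (0.683). KO empty 3 was the highest for *Decr1* (0.909), WT ORX 5 the lowest for *Mlycd* (0.712) and WT sham 5 the lowest for *Acot13* (0.653). The effect of DHT on *Echs1* differed between the genotypes in the test of that difference, with a log2 value of 0.61.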

How the results depend on the processing

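With 5 or 6 mice per group, small changes can be missed, and a gene not called is not shown to be unchanged. The calls depended on scaling more than on the tool. Of 48 called values of the 32 genes, 17 lost the call with library-size scaling, 7 with only the groups compared, 4 with upper-quartile scaling, 3 with a minimum of 10 counts, 1 with limma-voom and 0 with DESeq2 or TMM without mitochondrially encoded genes. In the 45 fits without 1 library, 149 values lost the call and 933 kept it. None reversed. *Cpt1b* had the lowest level per kilobase in both muscles.

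Counts that moved by over 1.5 times follow. With library-size scaling, the counts of called genes were 5 for WT ORX, 7 for KO ORX, with a median log2 fold change of −0.22, 1 for KO DHT and 2 for the DHT interaction. With DESeq2, they were 2 for KO against WT sham, 4 for WT DHT and 2 for the DHT interaction. At a threshold of 0.05, which admits more genes by construction, they were 17 for WT ORX, 6 for KO against WT sham, 4 for WT DHT, 13 for KO DHT and 2 for KO against WT empty. KO DHT held 3 with a minimum of 10 counts and 2 with only the groups compared, where KO against WT empty held 0. Other than for the threshold, the cause was not tested.

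Leaving out 1 library gave ranges of counts and, in brackets, of median log2 fold changes. They were 4 to 12 (−0.30 to −0.22) for WT ORX, 11 to 19 (−0.38 to −0.30) for KO ORX, 1 to 2 (0.15 to 0.22) for KO against WT sham, 0 (0.043 to 0.15) for KO against WT after ORX and 0 (−0.14 to −0.047) for the ORX interaction. In the DHT experiment they were 2 to 3 (0.077 to 0.18) for WT DHT, 2 to 7 (0.19 to 0.27) for KO DHT, 1 (0.070 to 0.18) for KO against WT empty, 8 to 13 (0.25 to 0.32) for KO against WT with DHT and 1 to 2 (0.080 to 0.16) for the DHT interaction. The cause was not tested.

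The numbers of the ORX labels name no shared animal, and correlations of 22 pairs with the same number lay between −0.15 and 0.19, with 6 over 0.1 and 4 best with their own number. With a replicate block, the counts were 9 for WT ORX, 18 for KO ORX, 1 for KO against WT sham, 0 for KO against WT after ORX and 0 for the interaction, and no call of the 26 ended. The DHT columns share no replicate number, and no paired analysis was run on them. Blocks of neighbouring animal numbers were not fitted.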
